A study of Mus musculus with 9 samples.

Results

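The genes described here encode the aminoacyl-tRNA synthetases of the mouse cytosol and mitochondria, taken from a list of symbols and found in the count table by their Ensembl gene identifiers. All 35 listed genes were among the 22396 genes of the table. Of these, 19 encode cytosolic enzymes or their subunits, and 16, whose symbols end in 2, encode mitochondrial enzymes. Lars2 was kept apart from the other 15 mitochondrial genes in all sums, medians and counts of calls. The list does not hold every synthetase of either compartment.

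The study sequenced RNA recovered with FLAG-tagged RIG-I (RIP-seq) from B16F10 cells, a mouse melanoma line. RIG-I is a cytosolic receptor that binds certain RNAs and triggers interferon production. There were 3 groups with 3 libraries each. Cells of the shCtr group carried a scramble shRNA and are labelled genotype WT, and cells of the shOSGEP#1 and shOSGEP#2 groups carried 1 of 2 shRNAs against OSGEP and are labelled KD OSGEP. Cells of every group made FLAG-RIG-I from a lentiviral construct, received their shRNA by lentivirus and were selected with puromycin, so each group is a transduced population that overexpresses a tagged receptor. The study describes the replicates as coming from independent experiments. Each value below is therefore a level in RNA recovered with FLAG-RIG-I, and libraries of total cellular RNA were not used here.

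Aminoacyl-tRNA synthetases join each amino acid to its tRNA, and the nucleus encodes separate enzymes for the cytosol and for the mitochondrion for most amino acids. Several cytosolic enzymes sit together in the multisynthetase complex, and many cytosolic synthetase genes are known targets of ATF4, the transcription factor of the integrated stress response. OSGEP provides the catalytic activity of KEOPS, the complex that makes the threonylcarbamoyl mark next to the anticodon of certain cytoplasmic tRNAs. These read codons beginning with A, among them the tRNAs for isoleucine, lysine, asparagine and threonine.

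Total counts were 40333037, 47750758 and 41805753 in shCtr replicates 1, 2 and 3. They were 34551436, 50224299 and 30697653 in shOSGEP#1, and 25460689, 568995 and 14914731 in shOSGEP#2. With 568995 counts, shOSGEP#2 replicate 2 was far shallower than every other library, and it had 4196 genes with a count against 11733 to 13958 in the others. A count of 3, the upper limit that a count of 0 allows, corresponds to 5.27 CPM (counts scaled to a library total of 1000000) in that library and to 0.0597 to 0.201 CPM in the other 8. Such floors, like the intervals given for shares of counts, cover counting error only. Because of its depth, the tests below used the other 8 libraries, shOSGEP#2 replicate 2 is shown apart, and the results with all 9 libraries follow. A further library stood apart in another measure: transcripts encoded by mitochondrial DNA took 2.96% of counts in shOSGEP#1 replicate 3 and 0.147% to 0.633% in the other 8 libraries.

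Osgep (ENSMUSG00000006289), the gene both shRNAs target, was at 19.1, 19.9 and 15.5 CPM in shCtr. It was at 3.76, 1.15 and 1.53 CPM in shOSGEP#1, and at 0.0786, 0 and 2.88 CPM in shOSGEP#2. All 6 knockdown libraries were below all 3 shCtr libraries, and the count of 0 in shOSGEP#2 replicate 2 allows up to 5.27 CPM. The means were 18.2 ± 2.32 CPM in shCtr and 2.15 ± 1.41 in shOSGEP#1 (SD, n = 3 each). In shOSGEP#2 the mean was 1.48 ± 1.98 (SD, n = 2), or 0.987 ± 1.64 with replicate 2 (SD, n = 3). In edgeR (quasi-likelihood test, Benjamini-Hochberg adjusted p-values across 12744 tested genes), the log2 fold change was -3.10 (SE 0.734, adjusted p = 0.0128) for shOSGEP#1 and -3.84 (SE 0.934, adjusted p = 0.0150) for shOSGEP#2. Both missed the threshold of adjusted p under 0.01 that is used throughout. Over the alternatives, the adjusted p ran from 4.69e-06 to 0.811 and from 0.000838 to 0.302. The shOSGEP#1 value passed without shOSGEP#2 replicate 1 (adjusted p = 0.000964) or replicate 3 (0.000920), and the shOSGEP#2 value passed without shOSGEP#2 replicate 3 (0.00134). The log2 difference between the shRNAs was -0.74 (SE 0.867, adjusted p = 0.568). It was 0.32 without shOSGEP#2 replicate 1. In bulk libraries such as these, fewer cells with an RNA and less of that RNA per cell cannot be told apart, nor can a change in the cell be told from a change in the share recovered with RIG-I.

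In shCtr, RNAs of cytosolic synthetases were far more abundant per length than those of mitochondrial ones. The median level of the 19 cytosolic genes was 62.0 CPM per kilobase of the longest annotated transcript, and that of the 15 mitochondrial genes was 6.60. Every cytosolic gene, from 20.2 to 371 CPM per kilobase, was above every mitochondrial gene other than Lars2, from 1.97 to 17.4. With the length of the union of exons in its place, the medians were 40.4 and 4.86, and the ranges were 14.8 to 283 and 1.74 to 10.7.

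Gars, which charges tRNA with glycine and also supplies the mitochondrial form, had the highest level per length, at 371 ± 56.1 CPM per kilobase (SD, n = 3). Nars followed with 145 ± 20.0. Sars with 114 ± 21.0, Aars with 111 ± 17.9, Vars with 101 ± 12.5 and Wars with 97.6 ± 25.6 did not differ from each other beyond their spread. Dars (75.9 ± 8.78), Kars (74.5 ± 5.33) and Eprs (73.3 ± 14.2) were also within each other's spread, but by exon union Eprs (22.8 ± 4.42) was below Dars (37.9 ± 4.38) and Kars (40.4 ± 2.89). Farsa, the alpha subunit of phenylalanyl-tRNA synthetase, was lowest of the cytosolic genes with 20.2 ± 1.12, while its partner subunit Farsb was at 51.8. Among mitochondrial genes, Iars2 was highest with 17.4 ± 1.07, followed by Rars2 with 10.7 ± 1.80. Mars2 with 2.02 ± 0.452 and Pars2 with 1.97 ± 0.165 were lowest by this length and did not differ beyond their spread, while by exon union Nars2 had the lowest mean (1.74 ± 0.469), with Pars2 (1.94 ± 0.163) and Mars2 (2.02 ± 0.452) within its spread. Lars2, at 61.3 ± 29.1 CPM per kilobase, stood at rank 11 of the 35 genes, among the cytosolic ones, and at rank 18 by exon union.

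Summed over the 19 cytosolic genes, the level was 5541, 5777 and 4508 CPM in shCtr and 5137, 4708 and 4528 CPM in shOSGEP#1. It was 6430 and 6215 CPM in shOSGEP#2 replicates 1 and 3, and 4838 in replicate 2. By library totals, the shOSGEP#1 sums lay within the shCtr range, whereas shOSGEP#2 replicates 1 and 3 lay above it. The tests also divide by TMM scaling factors, which were 1.03 and 1.07 in these 2 libraries and 0.975 to 0.985 in shCtr. The place of libraries near the edges of the shCtr range, shOSGEP#2 replicate 3 among them, therefore depends on the scaling. Means were 5275 ± 675 CPM in shCtr, 4791 ± 313 in shOSGEP#1 (SD, n = 3 each) and 6322 ± 152 in shOSGEP#2 (SD, n = 2), or 5828 ± 863 with replicate 2.

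The 15 mitochondrial genes summed to 363, 398 and 367 CPM in shCtr and to 475, 446 and 462 CPM in shOSGEP#1. In shOSGEP#2 they summed to 423 and 443 CPM in replicates 1 and 3, and to 339 in replicate 2. All 3 shOSGEP#1 libraries and both deep shOSGEP#2 libraries were above all 3 shCtr libraries, and shOSGEP#2 replicate 2 was below them. Means were 376 ± 18.9 CPM in shCtr, 461 ± 14.3 in shOSGEP#1 (SD, n = 3 each) and 433 ± 14.5 in shOSGEP#2 (SD, n = 2), or 402 ± 55.2 with replicate 2. Such sums are descriptions that carry no test here.

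The ratio of the cytosolic to the mitochondrial sum was 15.2, 14.5 and 12.3 in shCtr. It was 10.8, 10.6 and 9.79 in shOSGEP#1, and 15.2, 14.3 and 14.0 in shOSGEP#2. The shOSGEP#1 ratios were all below those of the other 6 libraries, and the shOSGEP#2 ratios, that of replicate 2 included, lay within the shCtr range. Iars2 and Vars2, the 2 mitochondrial genes called higher in shOSGEP#1, were then left out, which shrinks this separation by construction. Cytosolic genes that were lower there were not left out. Without Iars2 and Vars2 the other 13 mitochondrial genes summed to 235, 257 and 240.4 CPM in shCtr, 258, 238 and 258 CPM in shOSGEP#1, and 269.6, 183 and 306 CPM in shOSGEP#2. The ratio was then 23.6, 22.4 and 18.8 in shCtr, 19.9, 19.8 and 17.5 in shOSGEP#1, and 23.8, 26.5 and 20.3 in shOSGEP#2, and shOSGEP#1 overlapped shCtr. With Iars2 and Vars2 in the sum, group means of the ratio were 14.0 ± 1.54 in shCtr, 10.4 ± 0.532 in shOSGEP#1 (SD, n = 3 each) and 14.6 ± 0.838 in shOSGEP#2 (SD, n = 2), or 14.5 ± 0.625 with replicate 2. With Lars2 in the mitochondrial sum the mean ratios were 8.82, 5.05 and 1.29, the last without replicate 2. Single libraries had 8.40, 11.4 and 6.64 in shCtr, 8.63, 2.64 and 3.87 in shOSGEP#1, and 0.565, 0.0709 and 2.02 in shOSGEP#2. By this ratio shOSGEP#1 replicate 1 lay within the shCtr range.

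**Figure D1:**
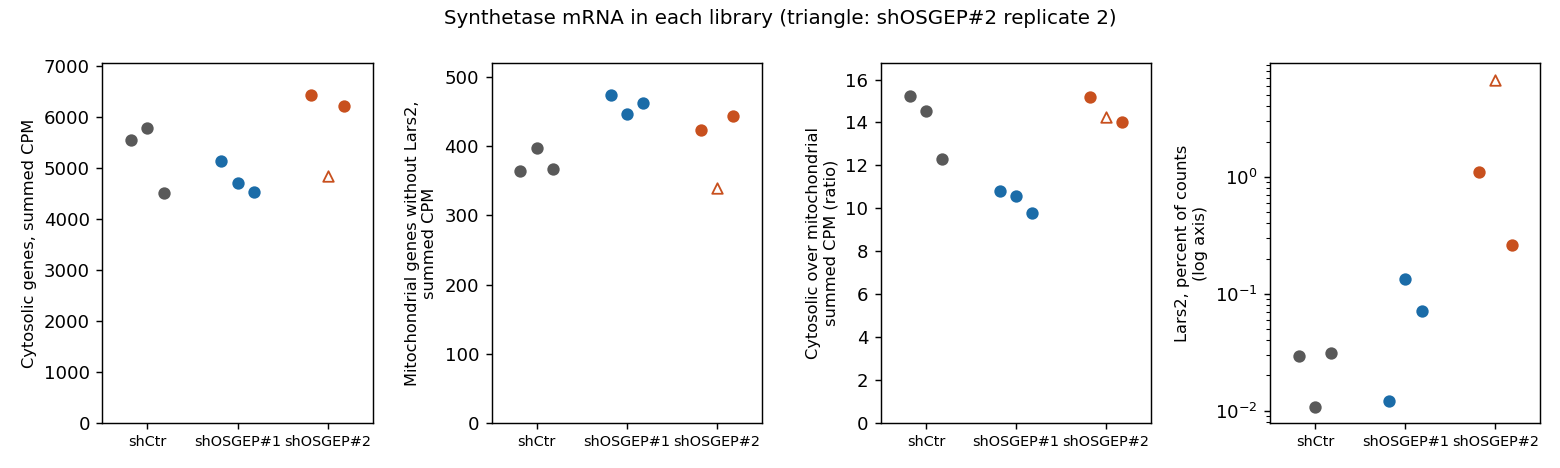
Summed CPM of the 19 cytosolic and the 15 mitochondrial synthetase genes, the ratio of these sums, and the percentage of all counts on Lars2 (log axis), with 1 point per library and a triangle for shOSGEP#2 replicate 2. The ratio is 9.79 to 10.8 in shOSGEP#1 and 12.3 to 15.2 in the other libraries, and Lars2 takes 0.264% to 6.79% of counts in shOSGEP#2.

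The comparison of shOSGEP#1 with shCtr asks which RNAs recovered with RIG-I changed with the first shRNA. Dars, the cytosolic aspartyl-tRNA synthetase, fell to well under its shCtr level, and it was the only cytosolic gene of the 19 past the threshold by edgeR's quasi-likelihood test. The mitochondrial isoleucyl- and valyl-tRNA synthetase genes Iars2 and Vars2 rose. The mitochondrial list thus had 2 genes higher and 0 lower of 15, and the cytosolic list 0 higher and 1 lower of 19. Over all 12744 genes tested, 5.00% were called higher and 4.67% lower, so the shares of the lists rest on very few genes.

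Dars (ENSMUSG00000026356; chr1:128363707-128417368, minus strand, GRCm38), a member of the multisynthetase complex, was at 154, 187 and 154 CPM in shCtr and at 64.9, 60.3 and 64.9 CPM in shOSGEP#1. Its level in shOSGEP#2 was 160 and 200 CPM in replicates 1 and 3 and 0 in replicate 2. The shOSGEP#1 libraries were tightly grouped and did not overlap shCtr, whereas the deep shOSGEP#2 libraries overlapped it. Its log2 fold change in shOSGEP#1 was -1.39 (SE 0.143, adjusted p = 0.000255), lower in 3 of 3 libraries. The call held without each of the 8 libraries in turn, with log2 fold changes from -1.45 to -1.30. It was lost with all 9 libraries by edgeR (-1.40) and by DESeq2 (-1.38), each with adjusted p = 1.00, and over the alternatives the adjusted p ran from 1.50e-16 to 1.

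Cars (ENSMUSG00000010755), the cytosolic cysteinyl-tRNA synthetase, was at 175, 174 and 134 CPM in shCtr and at 133, 114 and 86.4 CPM in shOSGEP#1. The shOSGEP#2 libraries held 203, 316 and 197 CPM. The 3 shOSGEP#1 libraries were below shCtr, the closest pair by very little, and the 3 shOSGEP#2 libraries were above it. Against shCtr, the log2 fold change in shOSGEP#1 was -0.55 (SE 0.176, adjusted p = 0.0471), which missed the threshold, and in shOSGEP#2 it was 0.22 (SE 0.196, adjusted p = 0.442). The shOSGEP#1 value passed in voom on 9 libraries (-0.54, adjusted p = 0.00302), within a range of 0.00302 to 1.00 over the alternatives.

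Iars (ENSMUSG00000037851), the cytosolic isoleucyl-tRNA synthetase and a member of the complex, was at 297, 284 and 209 CPM in shCtr and at 208, 180 and 104 CPM in shOSGEP#1. In shOSGEP#2 it was at 378 and 223 CPM in replicates 1 and 3 and at 0 in replicate 2. The libraries of shOSGEP#1 were below those of shCtr, replicate 3 by the most, and those of shOSGEP#2 spread widely around the shCtr range. In shOSGEP#1, its log2 fold change was -0.70 (SE 0.273, adjusted p = 0.0921) and did not pass. With a replicate block it was -0.74 with adjusted p = 0.00541, and over the alternatives the adjusted p ran from 0.00541 to 1.

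Iars2 (ENSMUSG00000026618; chr1:185284726-185329396, minus strand, GRCm38), the mitochondrial isoleucyl-tRNA synthetase, was at 89.3, 101 and 94.7 CPM in shCtr and at 144, 135 and 150 CPM in shOSGEP#1. Its level in shOSGEP#2 was 92.8 and 87.6 CPM in replicates 1 and 3 and 0 in replicate 2. Every shOSGEP#1 library was above every other library, and the deep shOSGEP#2 libraries were near shCtr. Its log2 fold change in shOSGEP#1 was 0.58 (SE 0.128, adjusted p = 0.00900), higher in 3 of 3 libraries. This call lay close to the threshold and was lost without shCtr replicate 1, 2 or 3 (adjusted p = 0.0501, 0.0366 and 0.0269) and without shOSGEP#1 replicate 1, 2 or 3 (0.0236, 0.0261 and 0.0208), while the log2 fold change stayed between 0.53 and 0.63. It was also lost with a replicate block (adjusted p = 0.0115) and with all 9 libraries by edgeR (0.57) and by DESeq2 (0.60). Over the alternatives the adjusted p ran from 0.000201 to 1.

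Vars2 (ENSMUSG00000038838; chr17:35655634-35667592, minus strand, GRCm38), the mitochondrial valyl-tRNA synthetase, was at 39.4, 39.3 and 31.5 CPM in shCtr and at 72.9, 72.9 and 53.6 CPM in shOSGEP#1. The shOSGEP#2 libraries held 60.5, 156 and 50.1 CPM. All 6 knockdown libraries were above all 3 shCtr libraries. The fitted log2 fold change was 0.84 (SE 0.178, adjusted p = 0.00727) in shOSGEP#1 and 0.50 (SE 0.197, adjusted p = 0.0945) in shOSGEP#2, and the difference between the shRNAs was -0.34 (SE 0.200, adjusted p = 0.236). The shOSGEP#1 call was lost without shCtr replicate 1, 2 or 3 (adjusted p = 0.0241, 0.0302 and 0.0279) and without shOSGEP#1 replicate 1 or 2 (0.0222 and 0.0350). Over all 8 fits without a library the log2 fold change ran from 0.75 to 0.98. It was lost as well with all 9 libraries by edgeR (0.83) and by DESeq2 (0.86), and the adjusted p ran from 8.59e-05 to 1.00 over the alternatives.

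Nars2 (ENSMUSG00000018995), the mitochondrial asparaginyl-tRNA synthetase, was at 8.36, 14.4 and 13.5 CPM in shCtr and at 20.0, 17.2 and 17.8 CPM in shOSGEP#1. In shOSGEP#2 it was at 20.3 and 38.0 CPM in replicates 1 and 3 and at 0 in replicate 2. The 5 deep knockdown libraries were above shCtr. The log2 fold change was 0.59 (SE 0.266, adjusted p = 0.142) in shOSGEP#1 and 1.16 (SE 0.293, adjusted p = 0.0175) in shOSGEP#2, and neither passed. For shOSGEP#2 it passed without shOSGEP#2 replicate 1 (1.52, adjusted p = 0.00583), by DESeq2 (1.18, 0.00173) and with no filter on low counts (1.16, 0.00583), within a range of 0.00173 to 0.839 over the alternatives.

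Over the 19 cytosolic genes, the median log2 fold change in shOSGEP#1 was -0.10, from -1.39 to 0.50, with 6 genes above zero and 13 below. For the 15 mitochondrial genes it was 0.10, from -0.57 to 0.84, with 8 above and 7 below. The mitochondrial median was -0.02 without shOSGEP#1 replicate 3 and 0.20 without shOSGEP#1 replicate 2. All genes tested had a median of 0.00, with 6387 above and 6357 below. At an adjusted p under 0.05, 2 cytosolic genes (both lower) and 3 mitochondrial genes (2 higher, 1 lower) were past the threshold, against 21.9% of all genes tested in either direction. The mitochondrial gene that was lower at that threshold, Aars2, was singled out after its values were seen. It encodes the mitochondrial alanyl-tRNA synthetase and was at 28.5, 27.5 and 22.3 CPM in shCtr and 19.6, 17.2 and 16.3 CPM in shOSGEP#1, with a log2 fold change of -0.57 (SE 0.173, adjusted p = 0.0366).

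The comparison of shOSGEP#2 with shCtr uses the same 3 shCtr libraries and only 2 shOSGEP#2 libraries. Qars, the cytosolic glutaminyl-tRNA synthetase, fell, and Mars2, the mitochondrial methionyl-tRNA synthetase, rose. By edgeR's quasi-likelihood test, 0 cytosolic genes were higher and 1 lower of 19, and 1 mitochondrial gene was higher and 0 lower of 15. Over all genes tested, 5.66% were called higher and 3.89% lower, so here too the lists hold very few calls. Of the calls over all genes, 59.2% were higher, against 70.6% when scaling used library totals only.

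Qars (ENSMUSG00000032604; chr9:108507706-108515941, plus strand, GRCm38), a member of the complex, was at 128, 121 and 117 CPM in shCtr and at 134, 126 and 126 CPM in shOSGEP#1. Its level in shOSGEP#2 was 83.6 and 64.6 CPM in replicates 1 and 3, and 82.6 in replicate 2. All 3 shOSGEP#2 libraries, the shallow one included, were below the other 6, and shOSGEP#1 overlapped shCtr. Against shCtr, the log2 fold change was -0.81 (SE 0.163, adjusted p = 0.00585) in shOSGEP#2 and 0.06 (SE 0.142, adjusted p = 0.794) in shOSGEP#1. The shOSGEP#2 call was lost without shCtr replicate 1, 2 or 3 (adjusted p = 0.0253, 0.0239 and 0.0142), without shOSGEP#1 replicate 1 or 2 (0.0106 and 0.0120) and without shOSGEP#2 replicate 3 (0.0490). Over all 8 fits without a library, those that kept the call included, the log2 fold change ran from -1.05 to -0.61. It was also lost with only the groups compared in the fit (0.0149), with all 9 libraries in edgeR (-0.94, adjusted p = 0.360) and in voom with quality weights (-0.83, 0.0108). Over the alternatives the adjusted p ran from 6.33e-05 to 0.360.

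Lars (ENSMUSG00000024493), the cytosolic leucyl-tRNA synthetase of the complex, was at 160, 182 and 118 CPM in shCtr and at 182, 169 and 137 CPM in shOSGEP#1. The shOSGEP#2 libraries held 281 and 247 CPM in replicates 1 and 3, and 153 in replicate 2. The deep shOSGEP#2 libraries were above all others, and the shallow one was within the shCtr range. The fitted log2 fold change in shOSGEP#2 was 0.69 (SE 0.201, adjusted p = 0.0317) and did not pass. It passed by DESeq2 (0.71, adjusted p = 0.00496) and with a replicate block (0.79, 0.00635), within a range of 0.00496 to 0.820 over the alternatives.

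Farsb (ENSMUSG00000026245), the beta subunit of phenylalanyl-tRNA synthetase, was at 106, 103 and 107 CPM in shCtr and at 98.4, 103 and 84.4 CPM in shOSGEP#1. In shOSGEP#2 it was at 108 and 51.4 CPM in replicates 1 and 3, and at 66.8 in replicate 2. The deep shOSGEP#2 libraries lay on either side of shCtr. The log2 fold change in shOSGEP#2 was -0.48 (SE 0.264, adjusted p = 0.218), and without shOSGEP#2 replicate 1 it was -1.16 with adjusted p = 0.00386. Over the alternatives the adjusted p ran from 0.00386 to 0.951.

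Mars2 (ENSMUSG00000046994; chr1:55237177-55248470, plus strand, GRCm38) was at 17.2, 24.0 and 27.2 CPM in shCtr and at 27.9, 27.2 and 35.1 CPM in shOSGEP#1. Its level in shOSGEP#2 was 40.3 and 69.4 CPM in replicates 1 and 3, and 22.8 in replicate 2. The deep shOSGEP#2 libraries were above all others and differed between themselves, and the shallow one was within the shCtr range. In shOSGEP#2, its log2 fold change was 1.16 (SE 0.258, adjusted p = 0.00939), higher in 2 of 2 deep libraries, and in shOSGEP#1 it was 0.39 (SE 0.234, adjusted p = 0.271). This call lay close to the threshold and was lost without shCtr replicate 1, 2 or 3 (adjusted p = 0.0373, 0.0324 and 0.0139), without shOSGEP#1 replicate 1 or 2 (0.0138 and 0.0161) and without shOSGEP#2 replicate 3 (0.102). The log2 fold change ran from 0.76 to 1.47 over all 8 fits without a library, the highest without shOSGEP#2 replicate 1, where the call was kept. It was lost too with only the groups compared in the fit (0.0190) and with all 9 libraries by edgeR (0.79, adjusted p = 0.752) and by DESeq2 (0.79, 0.519). Over the alternatives the adjusted p ran from 0.000358 to 0.752.

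Cars2 (ENSMUSG00000056228), the mitochondrial cysteinyl-tRNA synthetase, was at 21.0, 19.5 and 22.4 CPM in shCtr and at 17.9, 18.8 and 10.5 CPM in shOSGEP#1. The shOSGEP#2 libraries held 16.1 and 7.17 CPM in replicates 1 and 3 and 0 in replicate 2. The deep knockdown libraries were below shCtr, with a wide spread in each knockdown group. In shOSGEP#2 replicate 2, where 11 of the 15 mitochondrial genes had a count of 0, this 0 was not read as a lower level. Against shCtr, the log2 fold change was -0.43 (SE 0.308, adjusted p = 0.363) in shOSGEP#1 and -0.92 (SE 0.357, adjusted p = 0.0916) in shOSGEP#2, and neither passed. In shOSGEP#2 it was -1.68 without shOSGEP#2 replicate 1 (adjusted p = 0.0107) and -0.44 without shOSGEP#2 replicate 3 (0.428), and its adjusted p ran from 0.0107 to 0.694 over the alternatives.

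Over the 19 cytosolic genes, the median log2 fold change in shOSGEP#2 was 0.10, from -0.81 to 0.69, with 13 genes above zero and 6 below. This median turned to -0.03 without shCtr replicate 3. On 9 libraries it was -0.02 in voom and -0.32 in DESeq2, against -0.08 and -0.27 over all genes tested. With library totals it was 0.19, against 0.03 over all genes tested. The 15 mitochondrial genes had a median of -0.02, from -0.92 to 1.16, with 7 above and 8 below, and this median ran from -0.13 without shOSGEP#2 replicate 1 to 0.05 without shCtr replicate 1. All genes tested had a median of -0.06, with 5933 above and 6806 below. At an adjusted p under 0.05, 2 cytosolic genes (1 higher, 1 lower) and 2 mitochondrial genes (both higher) were past the threshold, against 21.0% of all genes tested in either direction.

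**Figure D2:**
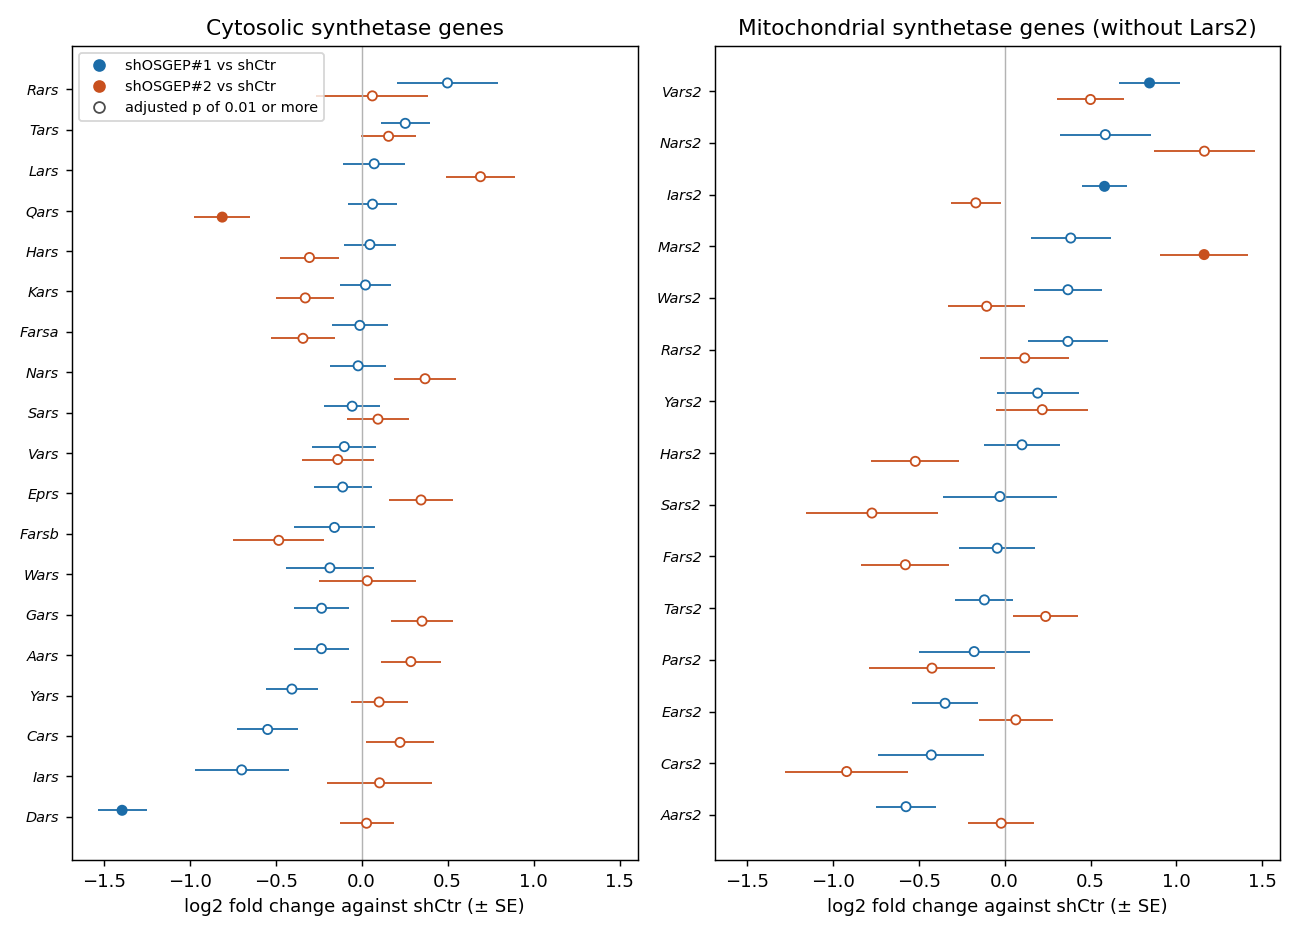
Log2 fold change against shCtr (points, with 1 SE) of the 19 cytosolic and the 15 mitochondrial synthetase genes, in shOSGEP#1 and shOSGEP#2. Lars2 is not shown. Values are from edgeR on 8 libraries, with filled points for adjusted p under 0.01. Dars at -1.39, Iars2 at 0.58 and Vars2 at 0.84 are filled for shOSGEP#1, and Qars at -0.81 and Mars2 at 1.16 for shOSGEP#2.

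Set directly against each other, the knockdown groups differed in Dars, Qars and Iars2. Dars was higher in shOSGEP#2 than in shOSGEP#1, and Qars and Iars2 were lower. Of the 19 cytosolic genes 1 was called higher and 1 lower, and of the 15 mitochondrial genes 0 higher and 1 lower, while 6.23% of all genes tested were called higher and 4.56% lower (10.8% together). The cytosolic count changed with the model: with a replicate block, 4 were called higher (Dars, Cars, Iars and Lars) and 1 lower, against 10.9% of all genes, and DESeq2 called 3 higher (Dars, Cars and Gars) and 1 lower, against 16.5%. At an adjusted p under 0.05, 6 cytosolic genes (5 higher, 1 lower) and 1 mitochondrial gene (lower) were past the threshold, against 23.2% of all genes tested in either direction.

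For Dars the log2 difference was 1.42 (SE 0.155, adjusted p = 0.000215), and both deep shOSGEP#2 libraries were above all 3 shOSGEP#1 libraries. It held without each library in turn, between 1.29 and 1.54, and was lost with all 9 libraries by edgeR (0.87, adjusted p = 0.843) and by DESeq2 (0.79, 0.770), within a range of 2.31e-14 to 0.843. For Qars it was -0.87 (SE 0.164, adjusted p = 0.00344), with no overlap of the groups. This call was lost without shOSGEP#1 replicate 1 or 2 (adjusted p = 0.0125 and 0.0117), without shOSGEP#2 replicate 3 (0.0326), with only the groups compared (0.0185) and with all 9 libraries in edgeR (-0.99, 0.298), within a range of 8.03e-06 to 0.298. For Iars2 it was -0.75 (SE 0.146, adjusted p = 0.00446), again with no overlap. It was lost without shCtr replicate 1 or 2 (adjusted p = 0.0101 and 0.0118), shOSGEP#1 replicate 1 or 2 (0.0147 and 0.0123) or shOSGEP#2 replicate 1 or 3 (0.0108 and 0.0366). It was also lost with only the groups compared (0.0221), in voom on 9 libraries (0.0504) and with all 9 libraries by edgeR (-1.29, 0.777) and by DESeq2 (-1.37, 0.560), within a range of 2.65e-05 to 0.777.

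Over the 19 cytosolic genes, the median log2 difference of shOSGEP#2 from shOSGEP#1 was 0.22, from -0.87 to 1.42, with 11 above zero and 8 below, and it was 0.10 without shOSGEP#2 replicate 1. With all 9 libraries it turned to -0.06 in edgeR and -0.09 in DESeq2. Over the 15 mitochondrial genes it was -0.25, from -0.75 to 0.78, with 6 above and 9 below, and over all genes tested it was -0.04. The mitochondrial value was -0.52 without shOSGEP#2 replicate 1 and -0.01 without shOSGEP#2 replicate 3. Among the cytosolic genes higher only at an adjusted p under 0.05 were Gars with 0.58 (adjusted p = 0.0364) and Yars with 0.51 (0.0465), the glycyl- and tyrosyl-tRNA synthetase genes, which were singled out after their values were seen.

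**Figure D3:**
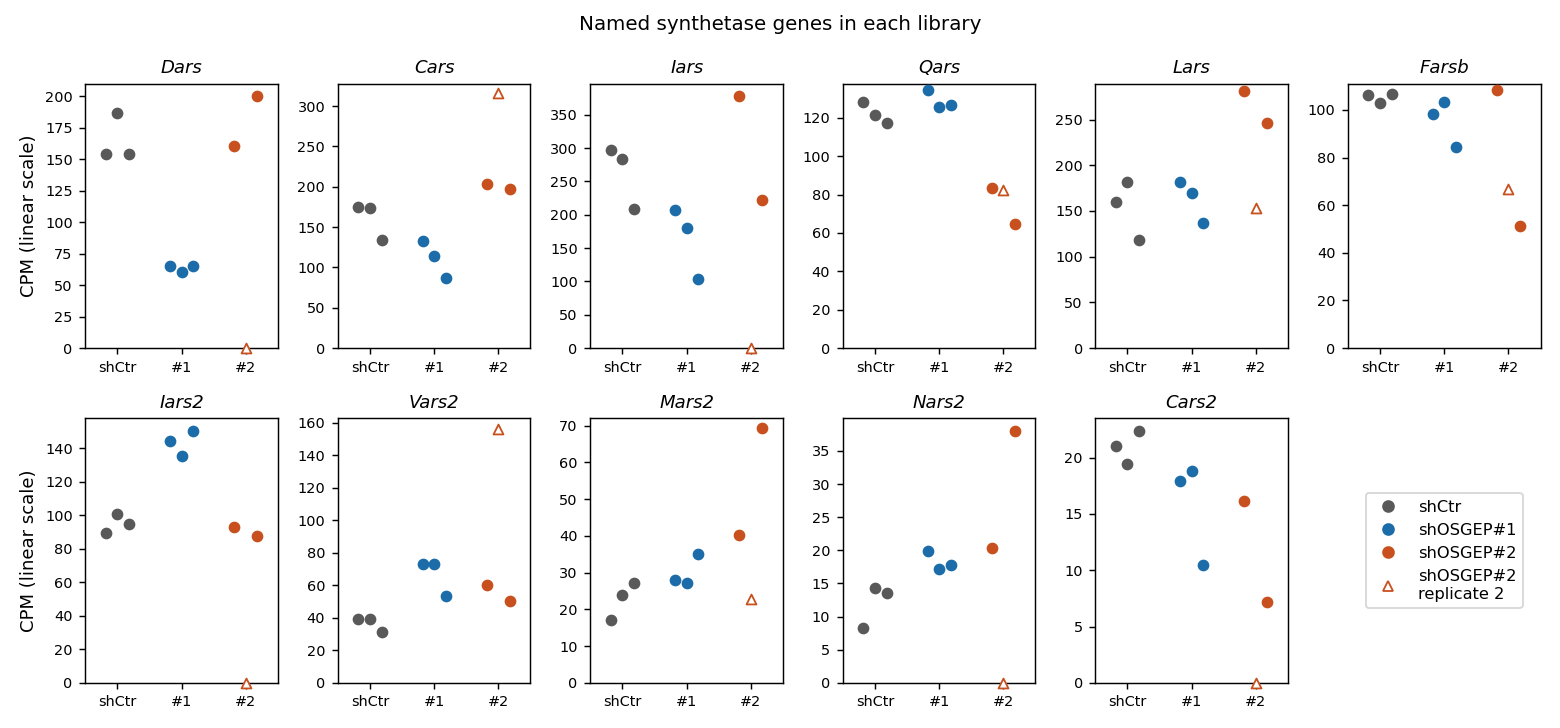
CPM in each library (points) of 11 synthetase genes described one by one, by group, with a triangle for shOSGEP#2 replicate 2. Dars is at 60.3 to 64.9 CPM in shOSGEP#1 and 154 to 187 in shCtr, and Qars is at 64.6 to 83.6 CPM in shOSGEP#2 and 117 to 134 elsewhere.

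With shOSGEP#2 replicate 2 in the fit, edgeR's quasi-likelihood test called 0 of the 19 cytosolic and 0 of the 15 mitochondrial genes in each of the 3 comparisons, and 0 of all 12337 genes tested, that is 0% in each. At an unadjusted p under 0.05 it had 0, 1 and 3 cytosolic genes for shOSGEP#1 against shCtr, shOSGEP#2 against shCtr and shOSGEP#2 against shOSGEP#1, and 0 mitochondrial genes in each, among 620, 1240 and 1325 of all genes (5.03%, 10.1% and 10.7%). On the same 9 libraries, limma voom with sample quality weights called 2, 0 and 2 cytosolic and 3, 1 and 0 mitochondrial genes, against 26.9%, 8.20% and 7.56% of all genes tested. DESeq2 on 9 libraries, an alternative added after seeing the data, called 0, 1 and 1 cytosolic and 0 mitochondrial genes, against 0.783%, 2.24% and 2.65%. In that edgeR fit the median log2 fold change of shOSGEP#2 against shCtr was -0.37 over all genes, -0.31 over the cytosolic and -0.53 over the mitochondrial genes, so these medians are to be read against a shift of all genes. For shOSGEP#2 against shOSGEP#1 they were -0.35 over all genes, -0.06 over the cytosolic and -0.57 over the mitochondrial genes.

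Within shOSGEP#2 replicate 2 itself, 5 of the 19 cytosolic genes (Dars, Farsa, Hars, Iars and Rars) had a count of 0, as had 11 of the 15 mitochondrial genes. Counts were seen there for Ears2, Mars2, Tars2 and Vars2. At the mean share of counts in replicates 1 and 3, this library would have held 171 counts of Iars, 102 of Dars, 83.1 of Rars and 51.3 of Iars2, each of which had 0. Other genes departed from that scale in both directions: Gars had 290 counts against 684, and Yars had 335 against 111.

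Lars2 (ENSMUSG00000035202; chr9:123366927-123462666, plus strand, GRCm38), the mitochondrial leucyl-tRNA synthetase, behaved unlike every other listed gene in its level. Its counts were 11933, 5181 and 13044 in shCtr, 4161, 67135 and 21684 in shOSGEP#1, and 279028, 38647 and 39335 in shOSGEP#2. That is 296, 109 and 312 CPM in shCtr, 120, 1337 and 706 CPM in shOSGEP#1, and 10959, 67922 and 2637 CPM in shOSGEP#2. The shOSGEP#2 libraries were above the other 6, and shOSGEP#1 overlapped shCtr and varied widely between replicates.

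By rank among all genes, Lars2 was the most abundant in shOSGEP#2 replicates 1 and 2 and stood at rank 8 in replicate 3. Its rank was 2115, 36 and 123 in shOSGEP#1 and 581, 2319 and 562 in shCtr. It took 6.79% of all counts in shOSGEP#2 replicate 2 (95% Wilson interval 6.73 to 6.86), 1.10% in replicate 1 (1.09 to 1.10) and 0.264% in replicate 3 (0.261 to 0.266). In the other 6 libraries its share was 0.0109% to 0.134%. The 3 libraries with the highest share were also the 3 with the lowest total count, and the part of depth in this result was not tested.

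By edgeR's quasi-likelihood test, the log2 fold change of Lars2 was 1.58 (SE 0.735, adjusted p = 0.150) in shOSGEP#1 and 4.75 (SE 0.867, adjusted p = 0.00340) in shOSGEP#2. Counts assigned to Lars2 thus rose in shOSGEP#2. Counts per gene do not show where in the gene the reads lay, and their origin was not tested. The shOSGEP#2 call was lost without shCtr replicate 1, 2 or 3 (adjusted p = 0.0152, 0.0168 and 0.0138) and without shOSGEP#2 replicate 1 (3.34, adjusted p = 0.0202). With all 9 libraries in edgeR it was 6.25 with adjusted p = 0.161 and no longer passed, whereas on the same 9 libraries DESeq2 (6.32, adjusted p = 9.21e-07) and voom with quality weights (4.86, adjusted p = 0.00235) kept the call. Over the alternatives the adjusted p ran from 9.21e-07 to 0.161. The shOSGEP#1 value was 0.78 without shOSGEP#1 replicate 2 and 2.09 without shOSGEP#1 replicate 1. The log2 difference of shOSGEP#2 from shOSGEP#1 was 3.17 (SE 0.818, adjusted p = 0.0182) and did not pass. It passed by DESeq2 (3.17, adjusted p = 0.00491), with no filter (3.17, 0.000670) and by DESeq2 on 9 libraries (4.73, 0.000642), within a range of 0.000642 to 0.208.

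Of the 7 cytosolic genes in the multisynthetase complex (Dars, Eprs, Iars, Kars, Lars, Qars and Rars), 1 was called lower in shOSGEP#1 (Dars) and 1 lower in shOSGEP#2 (Qars), against 4.67% and 3.89% of all genes tested. Between the shRNAs, 1 was called higher (Dars) and 1 lower (Qars), against 6.23% and 4.56%. Their median log2 fold change was 0.02 in shOSGEP#1 (4 above zero, 3 below), 0.06 in shOSGEP#2 (5 above, 2 below) and 0.46 in shOSGEP#2 against shOSGEP#1 (4 above, 3 below). Of the 12 cytosolic genes outside the complex edgeR called 0 in each comparison, with medians of -0.13, 0.10 and 0.18, and 2, 0 and 4 had an unadjusted p under 0.05, as had 2, 2 and 5 of the complex, against 34.9%, 35.6% and 37.1% of all genes tested. Other fits called genes outside the complex between the shRNAs. Cars was called in edgeR with a replicate block (adjusted p = 0.00569), and Cars and Gars by DESeq2 (0.00147 and 0.00628). Over all genes these fits called 10.9% and 16.5%. Within the complex, the block added Iars and Lars. With so few calls, the lists are described only, and the difference between them was not tested.

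By structural class of the enzyme, 2 of the 8 mitochondrial genes of class I were called higher in shOSGEP#1 (Iars2 and Vars2) and 1 in shOSGEP#2 (Mars2), against 5.00% and 5.66% of all genes tested. Their median log2 fold change was 0.37 and 0.09, and 2 and 3 had an unadjusted p under 0.05, against 34.9% and 35.6% of all genes tested. Of the 7 mitochondrial genes of class II edgeR called 0, with medians of -0.04 and -0.42, and 2 and 2 had an unadjusted p under 0.05. The difference between the classes was not tested. Of the cytosolic genes, the 8 of class I had medians of -0.14 and 0.08, and the 10 of class II had medians of -0.04 and 0.06, with Eprs, which holds an enzyme of each class, in neither. Dars of class II was called lower in shOSGEP#1 and Qars of class I lower in shOSGEP#2, against 4.67% and 3.89% of all genes tested. Class I had 3 and 2 at an unadjusted p under 0.05, and class II had 1 and 0.

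A grouping by whether the tRNAs charged read codons beginning with A was added after levels had been seen. It was applied to mitochondrial enzymes too, which charge mitochondrial tRNAs, whereas the paper describes the OSGEP mark on cytoplasmic tRNAs. The 6 cytosolic genes of this kind (Iars, Kars, Nars, Rars, Sars and Tars) had median log2 fold changes of 0.00 in shOSGEP#1 and 0.10 in shOSGEP#2, and edgeR called 0 of them in either, with 1 and 0 at an unadjusted p under 0.05. The other 13 had medians of -0.16 and 0.03, with 1 called lower in shOSGEP#1 (Dars) and 1 lower in shOSGEP#2 (Qars). Of these 13, 3 and 2 had an unadjusted p under 0.05. The 5 mitochondrial genes of this kind (Iars2, Mars2, Nars2, Sars2 and Tars2) had medians of 0.39 and 0.24, with 1 called in each comparison, Iars2 higher in shOSGEP#1 and Mars2 higher in shOSGEP#2. The other 10, with 1 called in shOSGEP#1 (Vars2), had medians of 0.03 and -0.06. Over all genes tested the medians were 0.00 and -0.06, with 5.00% and 5.66% called higher and 4.67% and 3.89% lower. At an unadjusted p under 0.05 the shares of all genes were 34.9% and 35.6%.

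Partner genes of the synthetases are given by list, to be read against 5.00%, 5.66% and 6.23% of all genes called higher and 4.67%, 3.89% and 4.56% called lower in shOSGEP#1 against shCtr, shOSGEP#2 against shCtr and shOSGEP#2 against shOSGEP#1. The 3 scaffold genes of the complex (Aimp1, Aimp2 and Eef1e1) had 0 calls by edgeR in the 3 comparisons and 0 at an unadjusted p under 0.05. The 3 genes of the mitochondrial amidotransferase that makes glutaminyl-tRNA (Gatb, Gatc and Qrsl1) had 0 calls, and 1, 0 and 1 at an unadjusted p under 0.05. Mtfmt, the mitochondrial methionyl-tRNA formyltransferase, was not called, with log2 fold changes of -0.06 and -0.86 against shCtr. The synthetase-like gene Tarsl2 was not called either.

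Ankrd16, one of 4 proofreading genes and a cofactor of alanyl-tRNA synthetase, was at 10.6, 11.3 and 10.9 CPM in shCtr, 15.9, 15.97 and 11.5 CPM in shOSGEP#1, and 20.8, 21.1 and 32.9 CPM in shOSGEP#2. The deep shOSGEP#2 libraries were above all shCtr and shOSGEP#1 libraries, while the level in shOSGEP#2 replicate 2 rests on 12 counts. Its log2 fold change in shOSGEP#2 was 1.19 (SE 0.244, adjusted p = 0.00621). It was lost without shCtr replicate 1, 2 or 3 (adjusted p = 0.0264, 0.0260 and 0.0209), shOSGEP#1 replicate 2 (0.0115) or shOSGEP#2 replicate 3 (0.0493), with only the groups compared (0.0101), with a replicate block (0.0115) and with all 9 libraries by edgeR (0.579) and by DESeq2 (0.0810), within a range of 9.90e-05 to 0.579. The other 3 (Aarsd1, Dtd1 and Dtd2) were not called.

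Of 3 genes of selenocysteinyl-tRNA synthesis, Sephs2, which makes selenophosphate, was at 76.0, 80.3 and 91.0 CPM in shCtr, 116, 106 and 92.4 CPM in shOSGEP#1, and 36.8, 0 and 52.2 CPM in shOSGEP#2. The deep shOSGEP#2 libraries were below all shCtr and shOSGEP#1 libraries. In shOSGEP#2, its log2 fold change was -0.99 (SE 0.188, adjusted p = 0.00415), lost without shCtr replicate 1, 2 or 3 (adjusted p = 0.0109, 0.0162 and 0.0146) or shOSGEP#2 replicate 1 (0.0243), with only the groups compared (0.0110) and with 9 libraries by voom (0.0176), edgeR (0.714) or DESeq2 (0.452), within a range of 2.70e-05 to 0.714. Between the shRNAs it differed by -1.32 (SE 0.190, adjusted p = 0.000774). Sepsecs, the enzyme that converts the serine-derived group on the tRNA to selenocysteine, was at 35.5, 46.7 and 36.8 CPM in shCtr, 26.5, 26.5 and 26.1 CPM in shOSGEP#1, and 60.1, 0 and 70.3 CPM in shOSGEP#2. The deep shOSGEP#2 libraries were above shCtr and the shOSGEP#1 libraries below it. The difference between the shRNAs was 1.22 (SE 0.173, adjusted p = 0.000736). Pstk was not called.

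Eef1a1, the cytosolic elongation factor that carries charged tRNA to the ribosome, was at 12339, 13022 and 13118 CPM in shCtr and 12181, 10971 and 11931 CPM in shOSGEP#1. In shOSGEP#2 it was at 6844 and 7015 CPM in replicates 1 and 3 and at 1362 in replicate 2. All 3 shOSGEP#2 libraries were far below the other 6. Eef1a1 fell in shOSGEP#2, with a log2 fold change of -0.98 (SE 0.133, adjusted p = 0.000630), and was lower than in shOSGEP#1 by a log2 difference of -0.84 (SE 0.132, adjusted p = 0.00131). Its mitochondrial counterpart Tufm was not called. Both Eef1a1 calls, like those between the shRNAs for Sephs2 and Sepsecs, were lost only with all 9 libraries in edgeR and DESeq2 among the alternatives run.

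Stress response genes, which share ATF4 as a known regulator with many cytosolic synthetase genes, were 11 in number. Their summed level was 3460, 3735 and 2581 CPM in shCtr, 2661, 2637 and 1976 CPM in shOSGEP#1, and 4948, 1986 and 4412 CPM in shOSGEP#2. The deep shOSGEP#2 libraries were highest, and shOSGEP#1 overlapped the lower part of the shCtr range. In shOSGEP#1, 0 were called higher and 2 lower, against 5.00% and 4.67% of all genes tested, with a median log2 fold change of -0.64. At an adjusted p under 0.05, 5 passed (all lower), against 21.9% of all genes tested in either direction. In shOSGEP#2 edgeR called 0, against 5.66% higher and 3.89% lower of all genes tested, with a median of 0.26. There, 4 had an unadjusted p under 0.05, against 35.6% of all genes tested. At an adjusted p under 0.05, 3 passed (2 higher, 1 lower), against 21.0% of all genes tested in either direction. Between the shRNAs, 4 were called higher in shOSGEP#2 and 0 lower, against 6.23% and 4.56% of all genes tested, with a median difference of 0.68. Here 5 (all higher) passed at an adjusted p under 0.05, against 23.2% of all genes tested in either direction.

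Sesn2, a stress-induced inhibitor of mTORC1 signalling, was at 160, 167 and 168 CPM in shCtr, 70.3, 57.8 and 55.1 CPM in shOSGEP#1, and 206, 0 and 215 CPM in shOSGEP#2. Like Dars, it was lower in every shOSGEP#1 library than in every shCtr library. Its log2 fold change in shOSGEP#1 was -1.45 (SE 0.138, adjusted p = 0.000171). Chac1, which degrades glutathione, was at 148, 176 and 115 CPM in shCtr, 65.1, 68.9 and 55.0 CPM in shOSGEP#1, and 241, 0 and 295 CPM in shOSGEP#2. It was lowest in shOSGEP#1 among the deep libraries and highest in shOSGEP#2, with a log2 fold change of -1.23 (SE 0.175, adjusted p = 0.00111) in shOSGEP#1 and a difference between the shRNAs of 2.00 (SE 0.192, adjusted p = 0.000118). Trib3, a pseudokinase induced by ATF4, was at 241, 322 and 124 CPM in shCtr, 130, 124 and 75.2 CPM in shOSGEP#1, and 580, 467 and 720 CPM in shOSGEP#2. All 3 shOSGEP#2 libraries were above the other 6, and the difference between the shRNAs was 2.48 (SE 0.340, adjusted p = 0.000640). The others called between the shRNAs were Sesn2 with 1.71 (adjusted p = 0.000100) and Psat1, an enzyme of serine synthesis named after its values were seen, with 1.25 (0.00549). The Psat1 call was lost without shCtr replicate 2 (adjusted p = 0.0106), shOSGEP#1 replicate 2 (0.0173) or shOSGEP#2 replicate 1 or 3 (0.0330 and 0.0129), with only the groups compared (0.0172) and with all 9 libraries by edgeR (0.605) and by DESeq2 (0.444), within a range of 1.27e-05 to 0.605. Among the alternatives run, both Sesn2 calls and both Chac1 calls were lost only with all 9 libraries in edgeR and DESeq2, and that for Trib3 only with all 9 in edgeR.

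Atf4 itself was at 863, 897 and 597 CPM in shCtr, 661, 688 and 408 CPM in shOSGEP#1, and 1449, 931 and 1013 CPM in shOSGEP#2. All 3 shOSGEP#2 libraries were above the other 6, and shOSGEP#1 overlapped shCtr. Atf4 was not called in any comparison, with a log2 fold change of -0.44 in shOSGEP#1, 0.56 in shOSGEP#2 and a difference of 1.00 between them (adjusted p = 0.0194).

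Promoter windows of the synthetase genes were searched for TGATGNAA, the core of the C/EBP-ATF response element that ATF4 is known to bind, on both strands. The windows run from 250 bases before to 50 bases after the annotated start and come from RefSeq (GRCm38.p6). Of the 12 cytosolic genes with a window, 5 held the motif, and of the 14 mitochondrial genes with a window, Lars2 among them, 0 held it. It was in 4 of the 11 stress response genes. Of all 27025 genes with a window 4.51% held it, and of all 32851 windows 3.97%. The narrower motif TGATGCAA was in 4 of the 12 cytosolic, 0 of the 14 mitochondrial and 2 of the 11 stress response genes. Of all genes with a window, 1.03% held that motif. Cars, Hars, Lars, Nars, Rars, Vars, Wars, Hars2 and Pars2 had no entry.

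One stretch with a match is printed for each gene shown, because such matches were found in windows of cytosolic genes and in none of the mitochondrial genes searched. The stretches are 30 bases each on the strand of the gene, 5′ to 3′, with the motif in capitals, shown as its reverse complement where it lies on the other strand. They lie at chr4:129189895-129189924 (Yars), chr6:55037960-55037989 (Gars), chr8:111033840-111033869 (Aars), chr13:49682126-49682155 (Iars) and chr15:11399655-11399684 (Tars, minus strand). For comparison, those of the stress response genes Chac1 and Trib3 lie at chr2:119351038-119351067 and chr2:152344028-152344057 (minus strand).
Yars: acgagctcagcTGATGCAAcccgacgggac
Gars: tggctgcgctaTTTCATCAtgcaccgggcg
Aars: agcgggtcactTTTCATCAgagcgctctga
Iars: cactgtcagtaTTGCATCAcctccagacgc
Tars: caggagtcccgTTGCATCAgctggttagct
Chac1: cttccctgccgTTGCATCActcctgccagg
Trib3: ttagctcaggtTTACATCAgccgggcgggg

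The cytosolic genes with a match were not called in either comparison with shCtr: the log2 fold changes in shOSGEP#1 and shOSGEP#2 were -0.23 and 0.29 for Aars, -0.23 and 0.35 for Gars, -0.70 and 0.10 for Iars, 0.25 and 0.16 for Tars, and -0.41 and 0.10 for Yars. For shOSGEP#2 against shOSGEP#1 the log2 differences were 0.52 for Aars, 0.58 for Gars, 0.80 for Iars, -0.10 for Tars and 0.51 for Yars. In that comparison edgeR on 8 libraries called none of them, while DESeq2 called Gars and the replicate block called Iars. Dars and Qars, which were called, held no match in their windows. The part of the motif in these changes was not tested. A match in these letters is a description and no evidence of binding.

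Exons of 12 of the 35 genes overlap exons of a gene on the opposite strand in the GENCODE annotation of GRCm38, and those of Aars overlap a gene on the same strand (Exosc6, 1326 of 9282 bases). Iars2 shares 2034 of its 8885 exonic bases with Rab3gap2, Vars2 shares 465 of 5460 with Gm20483, and Cars2 shares 422 of 7237 with Naxd. Rab3gap2 itself had log2 fold changes of -0.12 and 0.29 against shCtr and was not called. The library kit keeps strand, but whether counting used it is not given in the sources used here, and the part of these overlaps in the results was not tested.

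The melanoma label was checked against 7 melanocyte genes (Pmel, Mlana, Dct, Tyrp1, Tyr, Mitf and Sox10). Their summed level was 6336, 6039 and 8473 CPM in shCtr, 6288, 7565 and 6840 CPM in shOSGEP#1, and 2617, 1664 and 3374 CPM in shOSGEP#2. Tyrp1 was the most abundant of them in every library but shOSGEP#2 replicate 2, where Sox10 was and 2 of the 7 were at 0. Every library thus held melanocyte transcripts, at a lower level in the 3 shOSGEP#2 libraries than in the other 6. Of the 7, 1 was called lower in shOSGEP#1 and 5 in shOSGEP#2, and 4 were lower in shOSGEP#2 than in shOSGEP#1, against 4.67%, 3.89% and 4.56% of all genes tested. Tyr, the tyrosinase gene, was at 153, 153 and 193 CPM in shCtr, 30.4, 26.1 and 27.3 CPM in shOSGEP#1, and 5.93, 0 and 19.8 CPM in shOSGEP#2.

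Markers of other cells (Ptprc, Cd3e, Cd68, Pecam1, Cdh5, Epcam, Krt5, Col1a1, Pdgfra and Dcn) summed to 8.13, 7.23 and 4.28 CPM in shCtr, 3.21, 3.74 and 7.69 CPM in shOSGEP#1, and 10.4, 68.5 and 20.4 CPM in shOSGEP#2. Their sum was highest in the 3 shOSGEP#2 libraries, where Col1a1 was the most abundant of them. Without Col1a1 the other 9 summed to 6.07, 4.02 and 2.99 CPM in shCtr, 1.59, 2.77 and 5.90 CPM in shOSGEP#1, and 5.38, 0 and 5.70 CPM in shOSGEP#2, so the higher sums rested on that gene. Krt5 was at 0 in every library. Of the 6 that passed the filter on low counts, 1 was called higher in shOSGEP#2 than in shOSGEP#1. Against shCtr edgeR called 0 of them, with 0 and 1 at an unadjusted p under 0.05. Over all genes tested, 6.23% were called higher between the shRNAs, and 34.9% and 35.6% had an unadjusted p under 0.05 against shCtr. Calls against shCtr made up 5.00% and 5.66% higher and 4.67% and 3.89% lower. In shOSGEP#2 against shCtr, 3 of the 6 were above zero and 3 below, with a median of -0.34. In shOSGEP#2 replicate 2, 9 of these 10 genes were at 0, and in the other libraries 2 to 6 were. The level of Col1a1 moved with the shOSGEP#2 group, as did those of the melanocyte genes, and their part in the synthetase results was not tested.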

How the data were processed

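RNA bound to FLAG-RIG-I was measured in 9 libraries, 3 each of shCtr, shOSGEP#1 and shOSGEP#2. The authors processed reads with bcl2fastq, Trim Galore, STAR and Salmon on the mouse build GRCm39 with Ensembl annotation. The deposited values are whole-number counts per gene. From them, CPM (over each library's total) and percent of counts were computed here.

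Genes were named by matching identifiers to the GENCODE annotation of GRCm38, which held 22237 of the 22396, so lengths and positions come from a build other than the authors'. Counts were fitted in R 4.3.3 with edgeR 4.0.16 (TMM, filterByExpr, quasi-likelihood test, one coefficient per group, Benjamini-Hochberg over the 12744 genes tested, adjusted p under 0.01) on 8 libraries, without shOSGEP#2 replicate 2. All 35 listed genes passed the filter. The SE was taken from the F statistic, as the size of the log2 fold change over its square root. Wilson intervals and floors of 3 counts cover counting error only. The tests treat libraries as independent replicates and the spread is shared over genes, with 2 libraries in shOSGEP#2. Where a group is left with 1 library, it is assumed to vary like the others.

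The members and gene lists were chosen with earlier results of these data known. Genes given in full were Lars2, those past the threshold in any comparison, and the 3 cytosolic and 3 mitochondrial genes with the largest absolute log2 fold change in each comparison with shCtr. Partner genes were given by counts, with the 2 largest changes among those called per list.

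Alternatives were all 9 libraries, DESeq2 1.42.0, RLE scaling, library totals, no filter on low counts, a minimum of 10 counts per library, a looser adjusted p of 0.05, only the groups compared, a replicate block, voom with sample quality weights on 9 libraries (limma 3.58.1), each library left out in turn, exon union length, Lars2 in the sum and the narrower motif. DESeq2 on 9 libraries was added after seeing that edgeR called no gene there. The fits were tested on simulated data with known changes. Promoter windows came from RefSeq (GRCm38.p6). Tables and figures were made in Python 3.11.15 with matplotlib 3.10.9, pandas 2.3.3, numpy 2.4.6 and scipy 1.17.1.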

Additional observations from a re-analysis of the deposited data

Results flagged for a closer look

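The effects of the 2 shRNAs against OSGEP differed, by edgeR's quasi-likelihood test of the difference itself on 8 libraries, for 3 of 35 synthetase genes and 7 of 28 partner genes. Of all genes tested, 10.8 percent passed the same test. The log2 fold change of shOSGEP#2 against shOSGEP#1 was 1.42 for Dars, -0.87 for Qars and -0.75 for Iars2. It was -0.84 for Eef1a1, -1.32 for Sephs2 and 1.22 for Sepsecs. Among stress response genes it was 1.71 for Sesn2, 2.00 for Chac1, 2.48 for Trib3 and 1.25 for Psat1. Each of these differences missed the threshold once all 9 libraries were in the edgeR fit.

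In the library left out of the tests, shOSGEP#2 replicate 2, Lars2 took 6.79 percent of all counts, against 0.0109 to 0.0312 percent in the shCtr libraries.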

How the results depend on the processing

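Of the counts of genes called, the Lars2 and Osgep fold changes and the sum ratios, 147 values under an alternative kept their direction and their side of the threshold (for counts, within 1.5 times; for ratios, within 1 SD). Of the rest, 61 moved, 15 newly passed, 5 no longer passed and 1 changed direction. For single genes and list medians, 500 kept both, 20 moved, 11 newly passed and 94 no longer passed. For results that moved, the cause was not tested.

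Counts of cytosolic genes called are given for shOSGEP#1 against shCtr, shOSGEP#2 against shCtr and shOSGEP#2 against shOSGEP#1, where they were 1, 1 and 2, and mitochondrial counts were 2, 1 and 1. With all 9 libraries in edgeR they were 0, 0 and 0 for each list. With DESeq2 on 9 libraries, added after seeing the data, cytosolic counts were 0, 1 and 1 and mitochondrial counts 0, 0 and 0. With voom on 9 libraries cytosolic counts were 2, 0 and 2, and the last mitochondrial count was 0. DESeq2 on 8 libraries gave 2 and 4 cytosolic genes in the last 2 comparisons and 2 mitochondrial genes for shOSGEP#2 against shCtr. With no filter the mitochondrial count for shOSGEP#2 against shCtr was 2. With only the groups compared, the last 2 counts were 0 and 1 for cytosolic and 0 and 0 for mitochondrial genes. With the replicate block they were 2, 2 and 5 for cytosolic genes and 1 for mitochondrial genes in shOSGEP#1. At an adjusted p under 0.05 they were 2, 2 and 6 for cytosolic genes and 2 for mitochondrial genes in shOSGEP#2. Leaving out a library gave 1 to 1, 0 to 2 and 1 to 3 cytosolic genes, and 0 to 2, 0 to 3 and 0 to 1 mitochondrial genes.

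The Lars2 log2 fold change in shOSGEP#2, 4.75, was 6.25 and no longer past the threshold with all 9 libraries in edgeR, while DESeq2 (6.32) and voom (4.86) on 9 libraries kept the call, and it was 3.34 to 5.45 without single libraries. In shOSGEP#1 it was 0.78 to 2.09 without single libraries. Its difference between the shRNAs, 3.17, passed by DESeq2 (3.17), with no filter (3.17), by DESeq2 on 9 libraries (4.73) and at an adjusted p under 0.05 (3.17), and was 1.75 to 3.97 without single libraries. The mean ratio of the sums with Lars2 included was 8.82, 5.05 and 1.29 in shCtr, shOSGEP#1 and shOSGEP#2. Single libraries ran from 6.64 to 11.4, 2.64 to 8.63 and 0.565 to 2.02, the last without shOSGEP#2 replicate 2.

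Osgep in shOSGEP#1 passed with no filter (-3.10), only the groups compared (-3.11), voom on 9 libraries (-3.46) and at an adjusted p under 0.05 (-3.10), and was -3.77 to -2.79 without single libraries. In shOSGEP#2 it passed by DESeq2 (-3.72), with no filter (-3.84), by DESeq2 on 9 libraries (-4.07) and at an adjusted p under 0.05 (-3.84), and was -7.86 to -2.78 without single libraries. Its difference between the shRNAs turned to 0.32 without shOSGEP#2 replicate 1, within a range of -4.75 to 0.32. It had no value with at least 10 counts in every library.

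Over all genes, edgeR called 1232, 1217 and 1375 in the 3 comparisons, DESeq2 called 2419, 2405 and 2592, the replicate block 1380, 1238 and 1393, DESeq2 on 9 libraries 122, 349 and 413, and voom on 9 libraries 3317, 1012 and 933. With only the groups compared it was 1495, 1023 and 737, and without single libraries 318 to 1458, 518 to 1471 and 743 to 1504, so calls over all genes moved as well. The common dispersion was 0.0692 with 8 libraries and 0.420 with 9. Libraries with the same replicate number had a mean correlation of residuals of 0.0809 over 7 pairs and others -0.0398 over 14 pairs, with overlapping ranges. This check cannot decide whether the numbers are pairs, because the residuals of the 2 deep shOSGEP#2 libraries mirror each other. The main fit did not use the numbers, and the replicate block, with a common dispersion of 0.0586, is given as an alternative. With 568995 counts, shOSGEP#2 replicate 2 cannot show levels under 5.27 CPM. The test of shOSGEP#2 rests on 2 libraries.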
